A study of Mus musculus with 8 samples.

Results

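The 10 genes described here encode transcription factors that build and maintain pancreatic beta cells, leaving out the MAF proteins. They were chosen by name, as the rows of the count tables whose mouse gene identifier carries the symbol Pdx1, Nkx6-1, Mnx1, Nkx2-2, Neurod1, Pax6, Isl1, Foxa2, Rfx6 or Insm1, and all 10 were found among the 55414 genes counted and passed the filter on low counts that left 20509 genes. RNA came from pancreatic islets, the endocrine clusters of the pancreas, of C57BL/6 mice at 5 weeks of age, in 8 libraries. The 4 libraries labelled TG carry the genotype Ins2 cre(+/-) with ATF4 TG(+/-), and the 4 labelled WT carry Ins2 cre(-/-) with the same ATF4 TG(+/-), so the transgene is in both groups and only the Cre driver, named after the insulin 2 gene, is not. No group with Cre and without the transgene is in the labels, so an effect of Cre itself and an effect of the transgene cannot be told apart. Nothing in the labels says that the 4 samples of a group were separate animals, and p-values measure the spread between these samples, which may be technical. The series title names endoplasmic reticulum stress and ATF4, and the comparison asks which factors of beta-cell identity had lower transcript levels in the libraries with Cre and which did not.

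Beta cells, alpha cells and delta cells arise from common endocrine precursors, and the factors that set their identity bind one another's genes as well as the hormone genes. Some of them are kept mainly in beta cells after birth, where Pdx1 binds the insulin promoters, Nkx6-1 keeps the alpha-cell and delta-cell programmes off, and Mnx1 holds beta cells apart from delta cells. Others, such as Neurod1, Pax6, Isl1, Rfx6 and Insm1, are made in every islet endocrine cell type, so their transcripts in whole islets do not come from beta cells alone.

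The libraries held 16521087 to 22499999 counts assigned to genes. Atf4 itself stood at 234 to 278 CPM (CPM is counts scaled to effective library size) in the TG-labelled and 326 to 378 CPM in the WT-labelled libraries. Whether transgene RNA falls under this gene is unknown, so its counts cannot check the labels, and every direction here is that of libraries as labelled. As for the islet label, 6 beta-cell markers (Ins1, Ins2, Iapp, Ucn3, Slc2a2 and G6pc2) summed to 101898 to 122619 CPM in the WT-labelled and 49756 to 63739 CPM in the TG-labelled libraries, and none of them was at 0.

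Of the 10 factors, 8 had lower transcript levels in the TG-labelled islets, 0 had higher ones, and 2, Isl1 and Rfx6, were not called (edgeR quasi-likelihood test, two-sided, called at an adjusted p under 0.05). Among all 20509 genes tested, 8.06% were called lower and 12.1% higher. The median log2 fold change of the 10 factors was −0.77, that of all genes tested was −0.0019, and that of the 9265 genes between 11.4 and 340 CPM, the span of the factors' own means, was −0.05 with 13.4% called lower. At an unadjusted p under 0.05 the number of factors higher was also 0 with edgeR, DESeq2 and limma-voom. The groups did not overlap for 7 of the 10 factors, all with TG-labelled libraries lower, where 9.94% of all genes did so and 22.6% had groups apart in either direction. In whole islets, fewer cells of a type and less RNA per cell cannot be told apart.

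**Figure D1:**
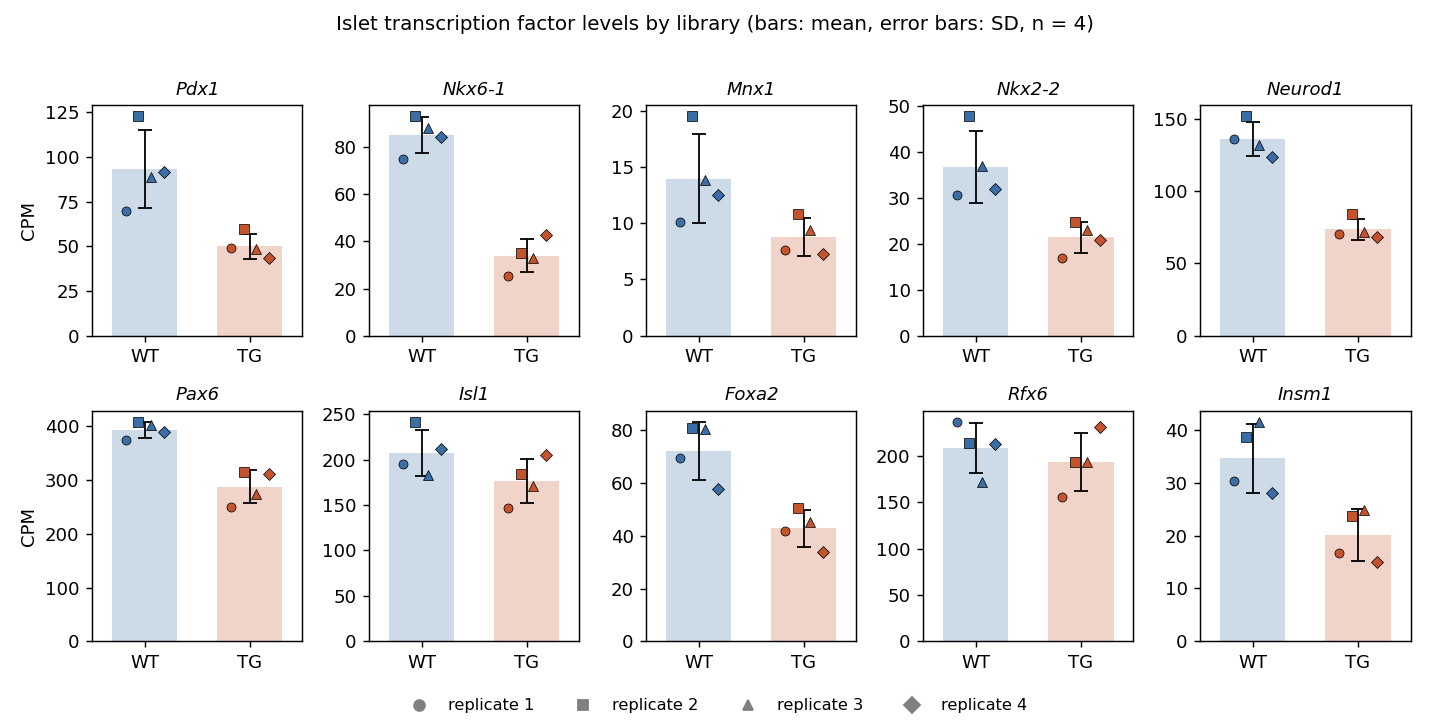
Level of each factor in CPM (y axis, linear and starting at 0, scale set per panel) in the WT-labelled and TG-labelled libraries. Bars are means, error bars SD with n = 4, and each marker shape is a replicate number; the groups overlap for Mnx1, Isl1 and Rfx6 and stand apart for the other 7 factors.

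Markers of some other cell types also differed between the groups. The counts below stand against 12.1% of all genes tested called higher. All 10 endothelial markers were called higher in the TG-labelled libraries, with summed levels of 1312 to 1344 CPM against 544 to 939 CPM, and 7 of 12 markers of stellate cells, fibroblasts and mural cells were, with 4111 to 7804 CPM against 1084 to 3449 CPM. Of 9 ductal markers 6 were higher and of 10 tested macrophage and lymphocyte markers 7 were, while 0 of 12 acinar markers were called (7541 to 47619 CPM against 1492 to 14434 CPM). Of 5 erythroid markers 2 were higher, with sums of 334 to 726 CPM against 80.0 to 330 CPM, and of 6 Schwann and nerve markers 2 were, with 81.1 to 99.2 CPM against 50.2 to 68.1 CPM. Among 8 alpha-cell markers 1 was called higher, and their sum was 29048 to 49536 CPM against 20506 to 37186 CPM. Among 6 markers of delta and pancreatic polypeptide cells 1 was called higher, with sums of 10533 to 12980 CPM against 9278 to 12201 CPM. The sums of both lists overlapped between the groups. With the mean level of endothelial and stromal markers as a covariate, only Nkx6-1 of the 10 factors was called (log2 fold change −1.33 without and −1.16 with it, adjusted p = 0.0237), 4 had an unadjusted p under 0.05, and the standard error of the median gene was 1.96 times as large. With the mean level of the alpha-cell markers as a covariate, chosen after seeing the data, the same 8 factors were called.

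Promoters were printed for the factor that fell most, for Pdx1, and for the 2 factors that were not called, so that the sequences just before genes on either side of the threshold can be compared. Each line gives the 250 bases before the RefSeq gene start in build GRCm38.p6, read 5′ to 3′ on the gene's strand, with every CpG dinucleotide in capitals. The deposited counts were made on mm39, so these positions belong to the promoter table only. The Nkx6-1 window lies at chr5:101664712-101664961, minus strand, that of Pdx1 at chr5:147269847-147270096, plus strand, that of Isl1 at chr13:116309689-116309938, minus strand and that of Rfx6 at chr10:51685268-51685517, plus strand.
Nkx6-1: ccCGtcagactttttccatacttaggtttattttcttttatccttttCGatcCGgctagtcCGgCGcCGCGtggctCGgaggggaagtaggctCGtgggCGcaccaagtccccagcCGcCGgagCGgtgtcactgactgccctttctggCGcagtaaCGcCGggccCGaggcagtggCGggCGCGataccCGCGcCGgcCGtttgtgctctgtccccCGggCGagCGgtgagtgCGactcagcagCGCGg
Pdx1: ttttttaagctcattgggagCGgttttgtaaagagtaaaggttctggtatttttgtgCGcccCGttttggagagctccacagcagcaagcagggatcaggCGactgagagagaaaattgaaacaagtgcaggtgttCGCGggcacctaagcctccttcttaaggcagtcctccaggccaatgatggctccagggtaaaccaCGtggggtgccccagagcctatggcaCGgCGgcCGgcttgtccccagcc
Isl1: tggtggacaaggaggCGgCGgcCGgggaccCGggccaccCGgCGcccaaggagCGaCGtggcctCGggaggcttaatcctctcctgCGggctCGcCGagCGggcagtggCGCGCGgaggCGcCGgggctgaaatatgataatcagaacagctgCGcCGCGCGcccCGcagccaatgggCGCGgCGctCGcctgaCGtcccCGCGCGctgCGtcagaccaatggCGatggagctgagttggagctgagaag
Rfx6: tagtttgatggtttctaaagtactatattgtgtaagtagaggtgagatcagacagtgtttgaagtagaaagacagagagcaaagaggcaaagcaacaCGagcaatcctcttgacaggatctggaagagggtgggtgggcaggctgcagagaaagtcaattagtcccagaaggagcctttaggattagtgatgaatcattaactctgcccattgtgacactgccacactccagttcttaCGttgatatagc
The windows hold 30 CpG dinucleotides for Nkx6-1, 10 for Pdx1, 33 for Isl1 and 2 for Rfx6, against a median of 6 over 32851 promoter windows. Isl1 and Rfx6, the factors not called, thus have the highest and the lowest CpG number of the 12 windows found for 9 of the 10 factors. Insm1 had no entry in the table.

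A set of 5 motifs was searched on both strands of these 12 windows. TGATGNAAT, the composite site bound by ATF4 with a C/EBP partner, was in 0 of them and in 0.816% of all windows. TGACGTCA, the cyclic AMP response element that bZIP dimers bind, was in 1 window of Pax6 and in 1.55% of all. CATCTG, an E-box form bound by NEUROD1 with an E protein, was in the window of Nkx2-2 and in 14.4% of all. TAATTA, a homeodomain core, and TGTTTAC, a forkhead core, were in 0 of the 12 windows and in 4.84% and 3.17% of all. The 2 matches are shown with the motif in capitals, at chr2:105668809-105668838, plus strand for Pax6 and at chr2:147186605-147186634, minus strand for Nkx2-2 (GRCm38.p6).
Pax6: tctggccgccgTGACGTCAtccgcgcccgg
Nkx2-2: cccacaatttcaCATCTGcaaatactgtct
The letters of a match do not show binding, and the windows leave out the distal enhancers of these genes.

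Nkx6-1 (ENSMUSG00000035187), a homeodomain repressor needed for beta-cell identity and insulin secretion, fell most among the 10 factors. It stood at 25.3, 35.0, 33 and 42.5 CPM in TG-labelled replicates 1 to 4 and at 75.0, 93.0, 88.2 and 84.3 CPM in WT-labelled replicates 1 to 4. The highest TG-labelled library lay well below the lowest WT-labelled one. The means were 33.9 ± 7.09 CPM and 85.1 ± 7.64 CPM (SD, n = 4 each), 2.51-fold lower in the former, with a log2 fold change of −1.33 (SE 0.13, adjusted p = 7.73e-06). Over the 20 other settings it lay between −1.48 and −1.16 and was called in each.

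Pdx1 (ENSMUSG00000029644), the homeodomain activator of the insulin genes and of Slc2a2, stood at 48.9, 59.8, 48.6 and 43.2 CPM in TG-labelled replicates 1 to 4. In the WT-labelled replicates it stood at 69.6, 123, 88.9 and 91.8 CPM. The groups did not overlap, and the WT-labelled libraries were the more scattered, with replicate 2 high and replicate 1 low. The fall was 1.86-fold (50.1 ± 6.96 CPM against 93.2 ± 21.9 CPM, n = 4 each with SD), a log2 fold change of −0.90 (SE 0.15; adjusted p = 0.00144). Adjusted for endothelial and stromal markers, the log2 fold change was −0.55 (adjusted p = 0.535).

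Mnx1 (ENSMUSG00000001566), a homeodomain factor that maintains beta-cell fate, was the least abundant of the 10. Its levels were 7.61, 10.8, 9.40 and 7.24 CPM in TG-labelled replicates 1 to 4 and 10.1, 19.5, 13.8 and 12.5 CPM in the WT-labelled ones. TG-labelled replicate 2 exceeded WT-labelled replicate 1, so the groups overlapped. The mean fell 1.59-fold, to 8.77 ± 1.67 CPM from 14.0 ± 3.99 CPM (SD, 4 libraries each), a log2 fold change of −0.67 (SE 0.20; adjusted p = 0.0305). This was the weakest of the 8 calls: it was lost without TG replicate 1 (−0.60, adjusted p = 0.0854), without TG replicate 4 (−0.62, adjusted p = 0.0589), without WT replicate 2 (−0.47, adjusted p = 0.138) and with acinar markers as a covariate (−0.62, adjusted p = 0.0771). It was also lost with pan-endocrine scaling (−0.48, adjusted p = 0.163) and on adjustment for endothelial and stromal markers (−0.36, adjusted p = 0.838).

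Nkx2-2 (ENSMUSG00000027434), a homeodomain factor that acts in islet precursors and keeps mature beta cells from expressing other hormones, measured 17.0, 24.8, 23.0 and 20.9 CPM in TG-labelled replicates 1 to 4. The WT-labelled replicates measured 30.6, 47.8, 37.0 and 31.9 CPM. No TG-labelled library reached the lowest WT-labelled value. The fall was 1.72-fold (21.4 ± 3.35 CPM against 36.8 ± 7.82 CPM, n = 4 each with SD), a log2 fold change of −0.78 (SE 0.15; adjusted p = 0.00212). The call was lost once endothelial and stromal markers entered the model (−0.56, adjusted p = 0.54).

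Neurod1 (ENSMUSG00000034701), a basic helix-loop-helix activator of insulin transcription, had narrow spreads in both groups. It stood at 70.1, 84.3, 71.7 and 68.4 CPM in TG-labelled replicates 1 to 4 and at 136, 152, 132 and 124 CPM in the WT-labelled ones. The groups were far apart relative to their coefficients of variation, which were 9.85% and 8.63%. The fall was 1.84-fold (73.6 ± 7.26 CPM against 136 ± 11.7 CPM, n = 4 each with SD), a log2 fold change of −0.88 (SE 0.094; adjusted p = 1.33e-05). It was −0.77 once adjusted for endothelial and stromal markers (adjusted p = 0.0598).

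Insm1 (ENSMUSG00000068154), a zinc finger factor of endocrine precursors and of mature endocrine cells, measured 16.8, 23.8, 24.8 and 15 CPM in TG-labelled replicates 1 to 4. The WT-labelled replicates measured 30.2, 38.7, 41.5 and 28.0 CPM. Replicates 2 and 3 were high in both groups, yet the highest TG-labelled value stayed below the lowest WT-labelled one. The fall was 1.72-fold (20.1 ± 4.91 CPM against 34.6 ± 6.51 CPM, n = 4 each with SD), a log2 fold change of −0.78 (SE 0.18; adjusted p = 0.00667). Adjustment for endothelial and stromal markers gave −1.09 (SE 0.34, adjusted p = 0.158).

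Foxa2 (ENSMUSG00000037025), a forkhead factor that opens chromatin in gut-derived tissues and activates Pdx1 and the potassium channel genes of beta cells, measured 41.9, 50.5, 45.2 and 33.8 CPM in TG-labelled replicates 1 to 4. The WT-labelled replicates measured 69.4, 80.9, 80.6 and 57.7 CPM. The groups did not overlap, and replicate 4 was the lowest in each. The fall was 1.68-fold (42.9 ± 6.98 CPM against 72.2 ± 11 CPM, n = 4 each with SD), a log2 fold change of −0.75 (SE 0.13; adjusted p = 0.00103). After adjustment for endothelial and stromal markers it was −0.98 (SE 0.26, adjusted p = 0.0758).

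Pax6 (ENSMUSG00000027168), a paired-box and homeodomain factor of all islet endocrine cells, had the highest counts of the 10 and the smallest of the called falls. It stood at 250, 315, 274 and 312 CPM in TG-labelled replicates 1 to 4 and at 375, 407, 402 and 389 CPM in the WT-labelled ones. The groups did not overlap. The fall was 1.37-fold (288 ± 31.3 CPM against 393 ± 14.7 CPM, n = 4 each with SD), a log2 fold change of −0.45 (SE 0.090; adjusted p = 0.00253). Scaled to the summed counts of 10 pan-endocrine markers in place of all genes, it was −0.27 (adjusted p = 0.167), and adjusted for endothelial and stromal markers −0.37 (adjusted p = 0.531).

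Isl1 (ENSMUSG00000042258), a LIM-homeodomain factor that pairs with LDB1 on endocrine enhancers, was not called. Its levels were 147, 184, 171 and 205 CPM in TG-labelled replicates 1 to 4 and 195, 241, 183 and 211 CPM in the WT-labelled ones. The groups overlapped, with TG-labelled replicate 4 above both WT-labelled replicates 1 and 3. The means were 177 ± 24.3 CPM and 208 ± 25.3 CPM (SD, n = 4 each), and the log2 fold change of −0.23 (SE 0.11, adjusted p = 0.159) had a 95% interval from −0.47 to 0.00092. Without TG replicate 4 Isl1 was called (−0.35, adjusted p = 0.0433), and its sign turned on adjustment for endothelial and stromal markers (0.22, adjusted p = 0.784).

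Rfx6 (ENSMUSG00000019900), a winged-helix factor needed to form islet cells and to keep calcium channel genes on in beta cells, had the smallest difference of the 10. It stood at 156, 193, 193 and 231 CPM in TG-labelled replicates 1 to 4 and at 236, 214, 172 and 213 CPM in the WT-labelled ones. The TG-labelled range lay almost entirely within reach of the WT-labelled one, with only TG-labelled replicate 1 below every WT-labelled library. The means were 193 ± 31.0 CPM and 209 ± 26.9 CPM (SD, n = 4 each), with a log2 fold change of −0.11 (SE 0.12, adjusted p = 0.586) and a 95% interval from −0.37 to 0.15. That interval leaves out the fitted value of each of the 8 called factors. It still overlaps the 95% intervals of Pax6 (−0.64 to −0.26) and Mnx1 (−1.10 to −0.23), so Rfx6 was not shown to differ from every called factor. The sign turned with pan-endocrine scaling (0.06, adjusted p = 0.866) and on adjustment for endothelial and stromal markers (0.34, adjusted p = 0.656).

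**Figure D2:**
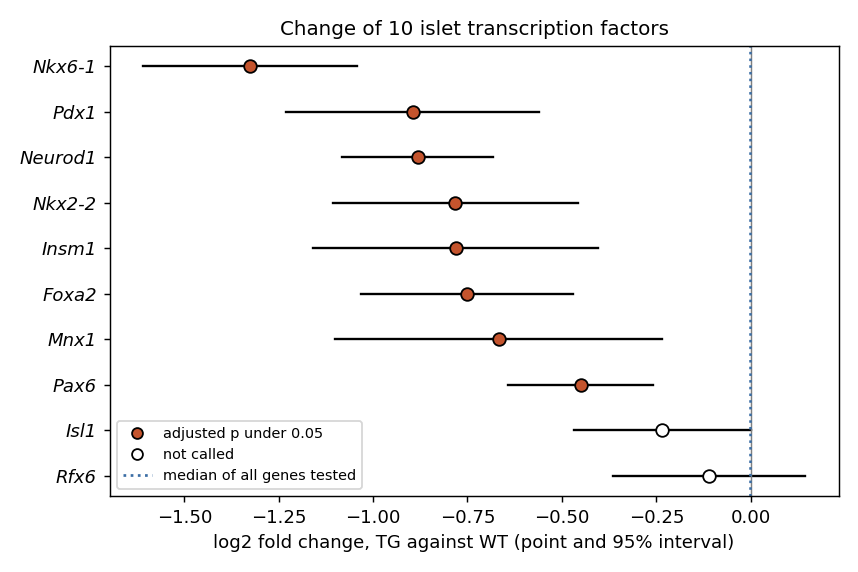
Fitted log2 fold change of each factor, TG-labelled against WT-labelled libraries (x axis, log2 units), with its 95% interval, ordered by size. Filled points are factors called at an adjusted p under 0.05; Nkx6-1 lies at −1.33, Rfx6 at −0.11, and the dotted line is the median of all genes tested.

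Replicates of a group did not differ in the same way for every factor. WT-labelled replicate 2 was the highest of its group for 8 of the 10 factors, and TG-labelled replicate 2 for 6. TG-labelled replicate 1 was the lowest of its group for 5 factors, Nkx6-1, Nkx2-2, Pax6, Isl1 and Rfx6, and TG-labelled replicate 4 for the other 5. TG-labelled replicate 1 also had the largest acinar sum (47619 CPM) and the smallest pan-endocrine sum (26057 CPM) of the 8 libraries. TG-labelled replicates 2 and 3 had the largest macrophage and lymphocyte sums (539 and 441 CPM), and without both of them, a choice made after seeing the data, 8 factors were called lower again, with a median log2 fold change of −0.99.

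The ratio of 2 factors within a library does not depend on how libraries are scaled. Among the 45 pairs of factors, 10 had ratios whose groups did not overlap. Each was at p = 0.0286 (exact permutation test, two-sided), the smallest value that 70 arrangements of 8 libraries allow. The share of other gene pairs whose ratios do so was not computed. Of all single genes tested, 22.6% had groups apart in either direction, so the number of such pairs is not read as a trait of these factors. After adjustment over the 45 pairs 0 were called (adjusted p = 0.129 for these 10), so no pair of factors was shown to change differently. A call would have needed most of the 45 pairs to reach the smallest value. The adjusted test could therefore hardly call a few differing pairs, and 0 called does not show that the factors changed alike. Rfx6 and Isl1 were each in 4 of the 10 pairs, Pax6 in 2, always as the factor that fell less or was not called, while Nkx6-1 and Neurod1 were each in 3 as the factor that fell more. The log2 ratio of Nkx6-1 to Rfx6 was −2.52 in the TG-labelled and −1.29 in the WT-labelled libraries, a change of −1.23. The ratio of Neurod1 to Isl1 changed by −0.65, that of Pdx1 to Isl1 by −0.64, and that of Foxa2 to Rfx6 by −0.64. In contrast the ratio of Pdx1 to Neurod1 changed by 0.0067 (p = 0.971, exact permutation test, two-sided) and that of Isl1 to Rfx6 by −0.12 (p = 0.314).

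**Figure D3:**
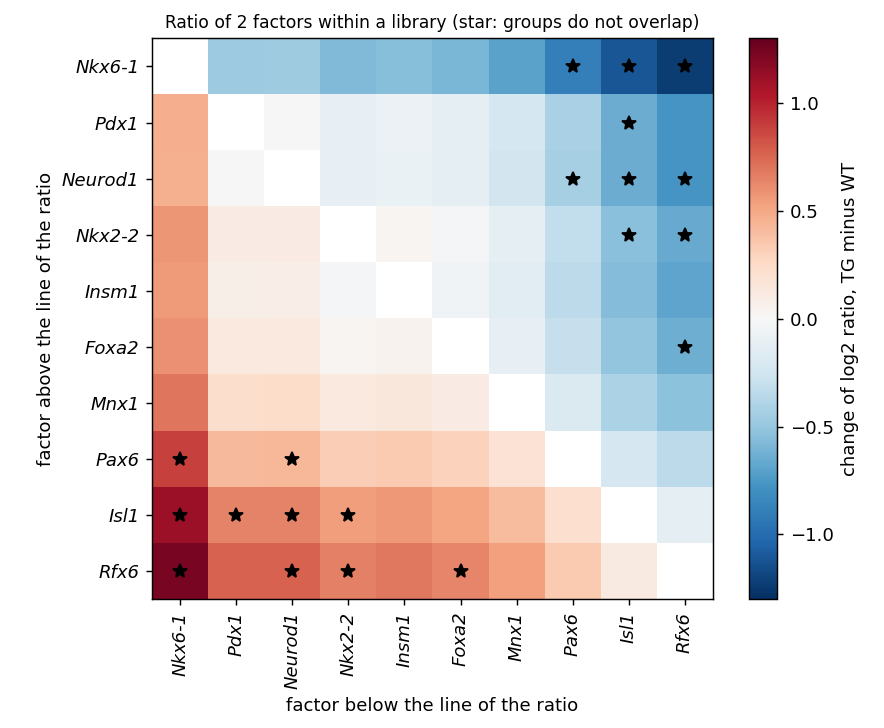
Change of the log2 ratio of 2 factors, TG-labelled minus WT-labelled libraries (colour, log2 units), for every pair; rows give the factor above and columns the factor below the line of the ratio. Stars mark the 10 pairs whose groups do not overlap, all of which involve Rfx6, Isl1 or Pax6.

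Per kilobase of annotated exon, a scale on which levels of different genes can be set side by side, Isl1 (52.5 ± 6.39), Rfx6 (52.1 ± 6.70), Neurod1 (49.7 ± 4.29) and Pdx1 (43.2 ± 10.2 CPM per kb, SD, n = 4) were the most abundant factors in the WT-labelled libraries. Pax6 followed at 33.6, Foxa2 at 30.4 and Nkx6-1 at 27.1 CPM per kb. Of neighbours in this order, only Nkx6-1 and Nkx2-2 (12.8) and Insm1 (11.2) and Mnx1 (6.20 CPM per kb) had ranges that did not overlap. In the TG-labelled libraries Rfx6 (48.2 ± 7.72) and Isl1 (44.6 ± 6.13 CPM per kb, SD, n = 4) stood above Neurod1 (27.0 ± 2.66 CPM per kb) without overlap, whereas in the WT-labelled libraries the 3 overlapped. Foxa2 and Nkx6-1 had ranges apart in the TG-labelled libraries (18.1 and 10.8 CPM per kb) and overlapping in the WT-labelled ones. Pax6 has many annotated isoforms, and its summed exon length of 11694 bases lowers its place in this order.

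**Figure D4:**
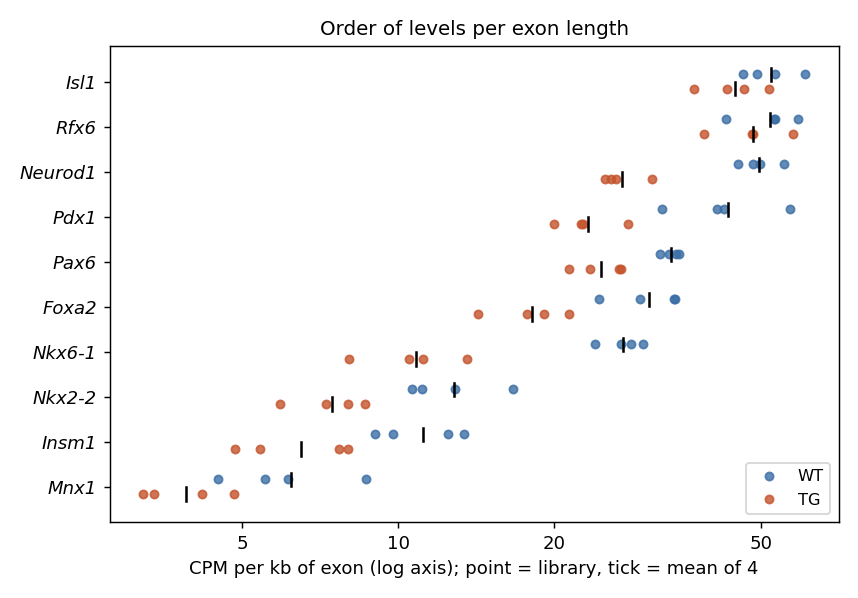
Level of each factor in CPM per kilobase of exon (x axis, log scale), ordered by the mean of the WT-labelled libraries. Points are libraries and ticks means of 4; the libraries of Rfx6, Isl1 and Mnx1 overlap between the groups, and the mean of every factor lies to the left in the TG-labelled libraries, least so for Rfx6.

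Several factor genes overlap transcripts on the other strand, and how strand was handled in counting was not stated, so reads of such partners cannot be told apart for certain. Plut, the antisense transcript at Pdx1, also fell, at 5.45, 5.02, 4.72 and 6.72 CPM in TG-labelled replicates 1 to 4 against 21.7, 16.5, 20.7 and 15.8 CPM in the WT-labelled ones (log2 fold change −1.77, SE 0.17, adjusted p = 4.4e-06). Pax6os1, antisense to Pax6, stood at 8.96 CPM against 19.6 CPM (−1.13, SE 0.16, adjusted p = 0.000142). Whether either changed more than its partner was not tested. Cerkl, which overlaps Neurod1 on the same strand, fell by 0.81 (SE 0.15, adjusted p = 0.00112). The antisense transcripts at Nkx2-2 were not called, with Nkx2-2os at 1.25 (adjusted p = 0.23) and 6430503K07Rik at −0.65 (adjusted p = 0.0745), and neither was Paupar beside Pax6 (−0.21, adjusted p = 0.411).

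The nearest coding genes that were tested fell, rose or were not called. All of these neighbours are named here. Of all genes tested 20.1% were called in either direction, and the neighbours are too few for their share to be set against it. Cds1 and Gpat3 beside Nkx6-1, Nom1 beside Mnx1, Elp4 beside Pax6, Parp8 beside Isl1, Gprc6a beside Rfx6, Itprid2 beside Neurod1, and Cfap61 and Ralgapa2 beside Insm1 were not called. Ube3c beside Mnx1 (−0.45, adjusted p = 0.00464) and Itga4 beside Neurod1 (−0.36, adjusted p = 0.027) fell. Rcn1 beside Pax6 (0.40, adjusted p = 0.00835) and Itga1 beside Isl1 (1.06, adjusted p = 0.00101) rose. Gsx1 and Cdx2 beside Pdx1, Nkx2-4 and Pax1 around Nkx2-2, Sstr4 beside Foxa2 and Vgll2 beside Rfx6 did not pass the filter on low counts.

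Other islet transcription factors were called in either direction. Of 40 listed, 37 were tested, of which 7 were lower and 5 higher, against 8.06% and 12.1% of all genes tested, with a median log2 fold change of 0.01. Mafa, an activator of insulin transcription, fell by 2.65 (SE 0.23, adjusted p = 8.49e-05) and Mlxipl, the glucose-responsive factor ChREBP, by 1.35 (SE 0.11, adjusted p = 9.23e-07). St18 (−0.65), a zinc finger factor of endocrine cells, and Tshz1 (−0.61) also fell. Onecut1, a factor of pancreatic precursors and ducts, rose by 2.7 (SE 0.45) from 0.470 to 3.14 CPM, and Nr5a2, an exocrine factor, by 1.63 (SE 0.33). Adjusted for endothelial and stromal markers Onecut1 stood at 0.80 (adjusted p = 0.833) and Nr5a2 at 0.09 (adjusted p = 0.974). Sox4 (−0.59, adjusted p = 0.135), Meis2 (−0.15, adjusted p = 0.289) and Etv1 (0.30, adjusted p = 0.0982) were the most abundant of the 25 not called. Sox4 was called lower with DESeq2 (adjusted p = 0.0105) but not with limma-voom (adjusted p = 0.0787).

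Of 30 proteins that bind the 10 factors or modify chromatin with them, 6 had higher and 2 lower transcript levels, against 12.1% and 8.06% of all genes tested, with a median log2 fold change of −0.04. Of the 4 inhibitors of basic helix-loop-helix factors, which take E proteins away from NEUROD1, Id4 was not called (0.66, adjusted p = 0.0738) and the other 3 rose: Id1 from 19.4 ± 3.77 to 43.2 ± 6.26 CPM (1.16, SE 0.15), Id2 from 12 ± 2.05 to 26 ± 1.90 CPM (1.11, SE 0.14) and Id3 from 11.3 ± 1.86 to 23.3 ± 3.14 CPM (1.05, SE 0.15, SD, n = 4). Lmo4, a LIM-only protein that can bind LDB1, rose by 1.55 (SE 0.23, adjusted p = 0.000249), while Ldb1 itself was at −0.04 (adjusted p = 0.814). The E protein gene Tcf4 rose by 0.54 (SE 0.11), and its relatives Tcf3 (−0.18) and Tcf12 (0.14) were not called. Tle3, a Groucho corepressor, fell by 1.03 (SE 0.15, adjusted p = 0.000257) and Smarca4, a motor of the SWI/SNF remodeller, by 0.44 (SE 0.096, adjusted p = 0.0045), a call lost with pan-endocrine scaling (−0.25, adjusted p = 0.202) and on adjustment for endothelial and stromal markers (−0.65, adjusted p = 0.129). Smarca2 rose by 0.36 (SE 0.12, adjusted p = 0.0418), a call lost with limma-voom (adjusted p = 0.0529), with each marker covariate, and without any one of TG replicates 2, 3 and 4 or WT replicates 1, 2 and 4 (0.19 to 0.38). Chd4 (−0.27, adjusted p = 0.142), Ankrd11 (0.19, adjusted p = 0.276) and Hdac2 (−0.22, adjusted p = 0.0524) were the most abundant of the 22 not called. Hdac2 was called lower with DESeq2 (adjusted p = 0.0164) and limma-voom (adjusted p = 0.0396), but not with pan-endocrine scaling (−0.03, adjusted p = 0.921). Id4 was called higher with DESeq2 (adjusted p = 0.0462) but not with limma-voom (adjusted p = 0.076). With endothelial and stromal markers in the model 0 of the 30 were called by edgeR and 5 had an unadjusted p under 0.05, with Id1 at 1.08, Id2 at 0.93, Id3 at 0.64, Lmo4 at 0.58 and Tcf4 at 0.05.

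Genes that the 10 factors are known to activate were mostly lower. Of 20 listed, 17 fell and 0 rose, against 8.06% of all genes called lower, with a median of −1.01. At an unadjusted p under 0.05, 0 were higher and 18 lower with edgeR, DESeq2 and limma-voom. Slc2a2, the glucose transporter GLUT2 (−2.58), Slc30a8, the zinc transporter of insulin granules (−1.62), Hadh, a mitochondrial fatty acid enzyme (−1.40), Pcsk1, a prohormone convertase (−1), and Ins2 (−1.05) had the lowest adjusted p-values. Ucn3, a marker of mature beta cells, stood at 72.2 ± 8.22 CPM against 156 ± 28.8 CPM (SD, n = 4 each; −1.11, SE 0.13, adjusted p = 3.11e-05). The 3 members not called were Abcc8 (−0.19, adjusted p = 0.385) and Cacna1d (−0.56, adjusted p = 0.0529), which encode ion channel subunits, and Syt4 (0.04, adjusted p = 0.807), a synaptotagmin of maturing beta cells. Cacna1d was called lower with DESeq2 (adjusted p = 0.00535) and limma-voom (adjusted p = 0.0247), but not with pan-endocrine scaling (adjusted p = 0.0786). In the model with endothelial and stromal markers 7 of the 20 were called lower and the median was −0.82.

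Genes known to rise in islets when these factors are deleted were mostly not called. Of 10 listed, 2 were higher and 0 lower (0 also at an unadjusted p under 0.05, by edgeR, DESeq2 and limma-voom), against 12.1% of all genes called higher, with a median of 0.49. Aldh1a3, a retinaldehyde dehydrogenase that marks dedifferentiating beta cells, rose by 4.4 (SE 0.33, adjusted p = 7.75e-05). Ldha, a lactate dehydrogenase normally kept low in beta cells, rose by 1.21 (SE 0.30, adjusted p = 0.0257), and this call was lost with no filter (adjusted p = 0.0567) without TG replicate 1, 2 or 3 or WT replicate 2 or 3 (log2 fold changes between 1.07 and 1.25) and on adjustment for endothelial and stromal markers (0.26, adjusted p = 0.927). The hormone genes in this list were not called, with Gcg at 0.42 (adjusted p = 0.261), Sst at −0.08 (adjusted p = 0.653) and Ghrl at 0.04 (adjusted p = 0.957).

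**Figure D5:**
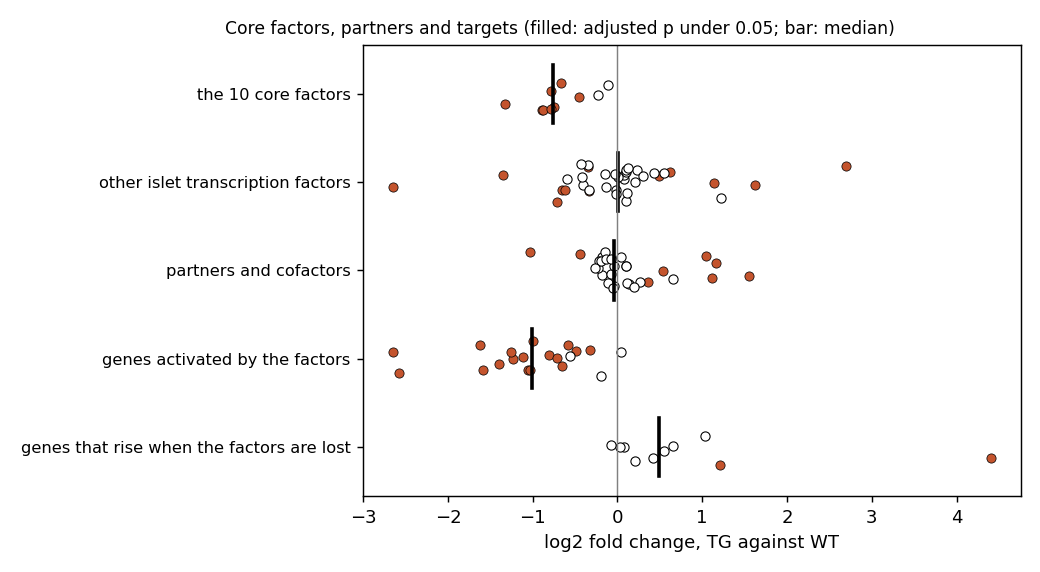
Log2 fold change of every tested gene in the 5 lists, TG-labelled against WT-labelled libraries (x axis). Filled points are genes called at an adjusted p under 0.05 and bars are list medians, −0.77 for the 10 core factors and −1.01 for the genes they activate.

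The genes whose levels followed each factor most closely over the 8 libraries were sought among 11943 genes of at least 5 CPM, by the root mean square difference of log2 CPM after each gene was centred on its own mean. For Nkx6-1 these were Mlxipl (0.0743) and the orphan receptor gene Gpr45 (0.0983), and for Pdx1 Dcaf12l1 (0.128) and the homeobox gene Six4 (0.145). For Neurod1 they were Mthfd1, a folate enzyme (0.0845), and Ap1s2 (0.096), and for Nkx2-2 Abca7 (0.127) and A830082N09Rik (0.128). The free fatty acid receptor gene Ffar3 was nearest to Foxa2 (0.105) and second nearest to Insm1 (0.132), which had Siah2 as its nearest (0.11). Hspa12a came second for Foxa2 (0.123). Mnx1 had Bmp1 (0.145) and Plppr4 (0.155), and Pax6 had H2-Q2 (0.043) and Taz (0.0472). For Isl1 they were Snx4 (0.0522) and Atm (0.0537), and for Rfx6 Fbxl4 (0.0449) and Hnrnpa1 (0.0653). The measure includes the difference between the groups, so a like change in these genes follows from how they were picked.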

How the data were processed

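RNA sequencing of 8 islet libraries, 4 per group, was used. The authors deposited raw read counts per Ensembl mouse gene; per the submitters' processing notes the tools were STAR 2.7.10a and HTSeq 0.11.3 with build mm39. No source used here states how strand was handled. Reads given to no gene were 25.3% to 31.5% of a table and ambiguous reads 3.74% to 4.36%, and both were left out. Replicates differed by more than sampling noise in every pair (chi-square per gene 16.9 to 56.7). Symbols were matched for 52081 of 55414 identifiers, and exon lengths and neighbours came from GENCODE on GRCm38, so no gene coordinates are given.

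Genes were filtered with filterByExpr (minimum count 10), scaled by TMM and compared by edgeR 4.0.16 in R 4.3.3. Its robust quasi-likelihood test (two-sided) was used, with Benjamini-Hochberg adjustment over 20509 genes. An adjusted p of a single gene comes from this fit unless another setting is named with it, and is then adjusted over the genes tested in that setting. All 10 factors were named, with called members of each list (up to 6 by lowest adjusted p), the 3 most abundant not called, the 2 genes nearest to each factor (log2 CPM with 0.5 CPM added) and neighbours. Ldb1, Tcf3, Tcf12, Smarca4, Smarca2 and Ghrl were named after their values were seen. Some listed genes are not reported here. The factors, lists and tests were chosen with earlier results of these data known. The lists of other factors and of partners share 4 genes. Alternatives were DESeq2 1.42.0, limma-voom 3.58.1, 3 other scalings, 2 other filters, marker covariates, a replicate block and each library left out. In the smallest library 3 counts equal 0.182 CPM. The gene-wise test was also run on simulated counts, with results not reported here. Figures were drawn with matplotlib 3.10.9.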

Additional observations from a re-analysis of the deposited data

Results flagged for a closer look

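Among the 4 libraries of each group, the 10 factors and 11 sums of cell type markers were searched for a library far from the others, 42 groups of 4 in all, of which chance flags about 1 in 20. The beta-cell marker sum of TG replicate 2 was flagged, at 63739 CPM against 49756 to 51684 CPM in the other TG-labelled libraries. It still lay below the lowest WT-labelled library (101898 CPM). The same library was the highest of its group for 6 of the 10 factors, and no value of a factor itself was flagged. Without it 8 factors were called lower.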

How the results depend on the processing

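Of 200 values of the 10 factors under 20 settings, 183 kept their direction and their side of the threshold, 13 lost the call, 1 gained it and 3 turned sign: Rfx6 with pan-endocrine scaling (0.055) and, with the vascular and stromal covariate, Rfx6 (0.34) and Isl1 (0.22). Of the 10 pan-endocrine markers 4 were called lower and 3 higher. Their sums overlapped, at 26057 to 37262 CPM in the TG-labelled and 32966 to 38787 CPM in the WT-labelled libraries. Pan-endocrine scaling moved the median of all genes to 0.19 and left 6 factors called lower (Mnx1 and Pax6 were lost). It raised the share of higher among called genes from 59.9% to 86.0%. With the vascular and stromal covariate 353 genes in all were called, 1 factor lower, 4 other islet factors, 0 partners, 7 activated genes and 1 of the genes that rise on deletion; the last was also 1 with no filter. Without TG replicates 2 and 3 together 2254 genes, 7 other islet factors and 1 gene of the last list were called. The replicate block called 8 factors lower and 5 genes of the last list; the numbers were not treated as pairing the samples, since same-numbered libraries correlated at 0.38, 0.26, −0.01 and 0.34, so 1 of 4 pairs did not deviate together, and TG replicates 1 and 3 correlated better with another number. It changed no call of a factor. Leaving out each library gave 2864 to 4404 called genes, 7 to 8 factors lower, 8 to 14 other islet factors, 7 to 9 partners, 15 to 17 activated genes, 1 to 3 of the last list and 10 to 17 pairs of factors without overlap, with 17 when either TG replicate 4 or WT replicate 1 was absent. The causes were not tested. Counts limit Mnx1 most, at 7.24 to 19.5 CPM.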
